A study of Mus musculus with 16 samples.

Results

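A set of 8 genes was examined that are best known outside hepatocytes, from testis, skeletal muscle, skin, brain or pancreas, and whose RNA level differed in mouse liver under the PPARα agonist Wy14643. They were Cox6b2, Ucp3, Rad51b, Bhlhb9, Lamb3, Pnliprp1, Cela1 and Fam47e, of which Rad51b acts in dividing cells of many tissues rather than in 1 tissue. These 8 genes had 10 of the 45037 probe sets tested, with 2 probe sets each for Ucp3 and Rad51b and 1 for each other gene. The members were chosen by their values in the response of wild-type liver to Wy14643 and in the comparison of the genotypes on Wy14643. Those comparisons, and the difference of the responses built from them, are therefore given as a description without a test. The response of the knockout liver and the comparison on control food were not used for the choice, although they share arrays with it, and are given with the test.

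The 16 samples were livers of male mice, 12 to 20 weeks old according to the labels, each hybridized to its own Affymetrix array for the whole mouse genome. The mice formed 4 groups of 4. PPARα-null mice (129S4/SvJae, called knockout) and wild-type mice (129S1/SvImJ) were given Wy14643 mixed into the food at 0.1% by weight over 5 days, and knockout and wild-type mice on normal food served as controls. The knockout lacks the receptor in the whole body and throughout life. Genotype went with substrain, so the 2 cannot be told apart in any comparison of knockout with wild type.

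PPARα is a nuclear receptor for fatty acids that forms a heterodimer with the retinoid X receptor and binds direct repeats of a short core motif, through which it turns on fatty acid uptake and oxidation in the fasted liver. Wy14643 is a synthetic ligand that activates it. In mice, sustained activation enlarges the liver, increases peroxisomes and induces genes that are otherwise characteristic of muscle, heart or brown fat.

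The start sites of the members were looked at for the core motif bound by PPARα, and the windows shown are the 3 that held it and, for contrast, that of Cox6b2, which did not. Each window is the 250 bases before an annotated start, taken from RefSeq (GRCm38.p6) and written 5′ to 3′ on the strand of the gene, with the core motif AGGTCA, or TGACCT where it lies on the other strand, in capitals. The Ucp3 window is chr7:100472741-100472990 on the plus strand, that of Cela1 chr15:100687921-100688170 on the minus strand, that of Fam47e (start site 1) chr5:92571287-92571536 on the plus strand and that of Cox6b2 chr7:4753095-4753344 on the minus strand.
Ucp3: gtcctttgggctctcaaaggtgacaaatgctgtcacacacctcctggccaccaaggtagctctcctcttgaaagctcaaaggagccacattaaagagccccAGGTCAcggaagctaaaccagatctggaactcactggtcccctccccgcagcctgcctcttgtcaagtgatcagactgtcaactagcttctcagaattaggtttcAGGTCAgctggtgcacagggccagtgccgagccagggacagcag
Cela1: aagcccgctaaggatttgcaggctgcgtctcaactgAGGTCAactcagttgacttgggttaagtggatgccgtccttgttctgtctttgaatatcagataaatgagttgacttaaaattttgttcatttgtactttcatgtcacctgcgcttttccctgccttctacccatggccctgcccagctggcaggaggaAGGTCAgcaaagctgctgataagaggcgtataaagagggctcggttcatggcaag
Fam47e: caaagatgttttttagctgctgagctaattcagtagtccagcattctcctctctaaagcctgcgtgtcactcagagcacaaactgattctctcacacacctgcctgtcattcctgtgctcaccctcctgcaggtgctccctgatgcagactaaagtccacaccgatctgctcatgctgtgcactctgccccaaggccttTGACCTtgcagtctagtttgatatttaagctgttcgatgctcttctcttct
Cox6b2: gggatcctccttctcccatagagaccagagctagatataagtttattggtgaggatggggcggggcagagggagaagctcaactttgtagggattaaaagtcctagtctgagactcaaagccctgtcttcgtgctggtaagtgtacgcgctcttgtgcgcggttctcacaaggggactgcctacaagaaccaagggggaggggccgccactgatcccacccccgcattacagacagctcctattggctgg

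All 8 genes were matched, through 11 windows, since Rad51b, Lamb3 and Fam47e have 2 annotated start sites. The core motif AGGTCA, searched on both strands, was present in 3 of the 11 windows and in 3 of the 8 genes, against 14.0% of 32851 mouse promoters of the same length. In Ucp3 it lay 149 to 144 and 44 to 39 bases before the start, in Cela1 214 to 209 and 55 to 50 bases before it, and in Fam47e 51 to 46 bases before it on the opposite strand. The direct repeat with 1 base between the core motifs, AGGTCANAGGTCA, also searched on both strands, was found without mismatch in none of the 11 windows and in 0.0335% of all promoters. The closest matches were aggtttcaggtca in Ucp3, which overlaps its second core motif, and aggtcaaaggcct in Fam47e, which overlaps its core motif, each with 2 mismatches. A match with at most 2 mismatches was present in 3.24% of all promoters. The other windows had 3 to 5 mismatches, Cela1 and the second start site of Lamb3 having 3. A match with at most 3 mismatches was present in 21.3% of all promoters. Such matches describe letters in a window and are not evidence of binding.

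Values are log2 intensities. Array medians lay between 2.15 and 2.24, so a mean at or below 2.24 is treated as not above the background of the array, and a fold against such a group is given as a lower bound ("at least") computed against 2.24. Of all probe sets 12877 had a mean above 4, and among the members 5 of 10 did. Within groups, Pearson's r over those 12877 probe sets was 0.975 to 0.991. A probe set was called at an adjusted p under 0.01 and a fold over 1.5 (limma). The 3 Ppara probe sets were lower by 1.15, 1.43 and 2.20 on the log2 scale in knockout than in wild-type liver on Wy14643, but were still well above background (lowest array 5.90), and the part of the transcript they match was not examined. At least 9 of 10 hepatocyte markers exceeded a log2 intensity of 4 in every array. Their summed intensities were 57809 to 63221 in wild-type livers on Wy14643 and 72297 to 77312 in the other groups. The labelled tissue is therefore borne out. The median change over all probe sets was -0.03 in the wild-type response. In bulk liver, a change in the RNA per cell and a change in the number of cells that hold it cannot be told apart.

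One array stood apart. The wild-type liver on Wy14643 with replicate number 3 carried transcripts of pancreatic acinar cells, the cells that make digestive enzymes. Of 12 measured acinar markers 11 were higher there than in every other array, the exception being Rbpjl. Their summed intensity was 2177 in that array, against 39.8 to 49.0 in the other 15. Cela2a, a pancreatic elastase, reached a log2 intensity of 8.67 there, and no acinar marker exceeded 3.20 in any other array. Skeletal muscle markers were also a little higher in that array, 10 of 15 exceeding every other array, with Acta1, the actin of skeletal muscle, highest at 4.09. Results for Pnliprp1 and Cela1, the pancreas genes among the members, and the wild-type response of Ucp3 are given with and without this array.

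In wild-type liver, Wy14643 was accompanied by higher levels of Cox6b2, Ucp3, Rad51b, Bhlhb9, Lamb3 and Pnliprp1 and by lower levels of Cela1 and Fam47e. Of the 10 probe sets 9 met the call rule, 7 higher and 2 lower, where 5.84% of all probe sets were called higher and 4.82% lower. With 1 probe set per gene the background was 7.72% higher and 6.74% lower. On Wy14643, knockout liver differed from wild-type liver in the opposite direction in the same 9 probe sets, 2 being higher and 7 lower, beside 4.91% and 6.17% of all probe sets. The difference of the responses met the rule in 8, beside 7.04%. Groups did not overlap in 9 of the 10 probe sets in the wild-type response, beside 22.6% of all probe sets. Between the genotypes on Wy14643 they did not overlap in 9, beside 21.5%. Since these comparisons share the wild-type arrays on Wy14643 and were used to choose the members, nothing is read from these counts.

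**Figure D1:**
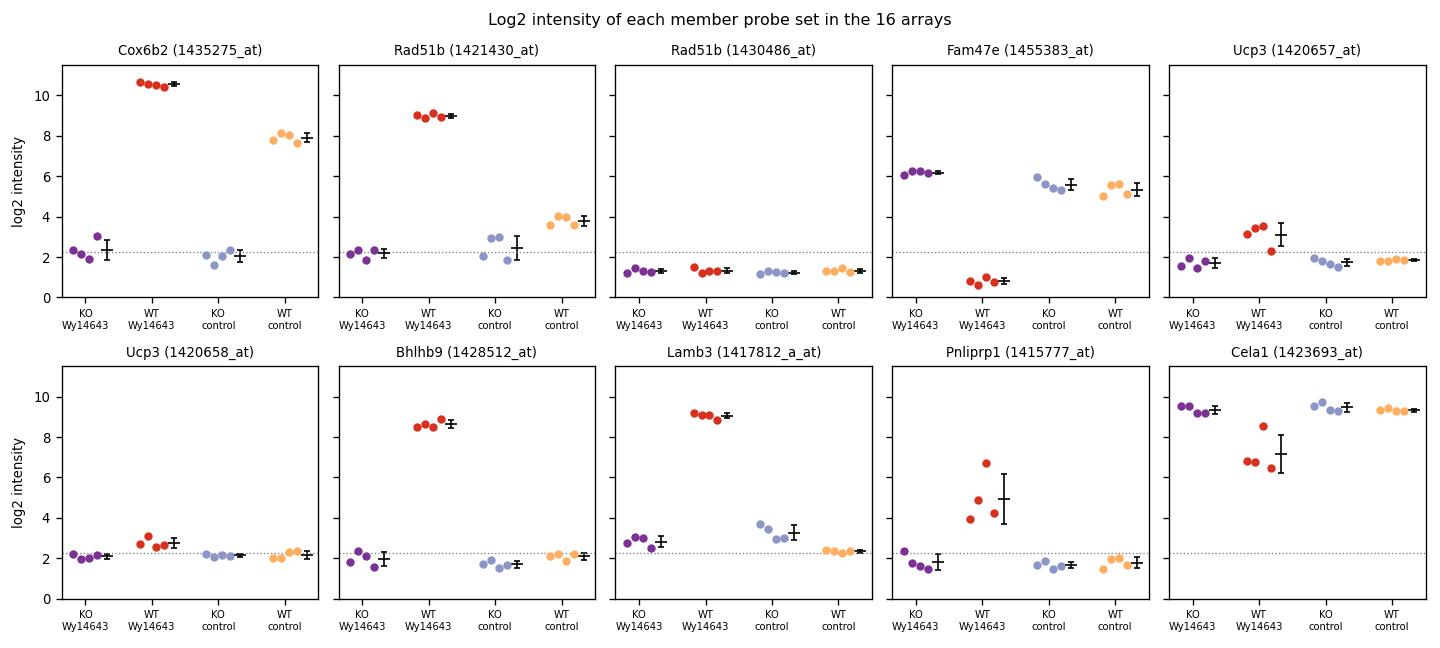
Log2 intensity of each member probe set, 1 point per array, with group mean and SD beside the points and the highest array median (2.24) as a dotted line. Wild-type arrays on Wy14643 stand above all others for Cox6b2, Rad51b (1421430_at), Bhlhb9, Lamb3 and Pnliprp1 and below all others for Cela1 and Fam47e, while Rad51b 1430486_at stays near 1.3 throughout.

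In knockout liver, none of the 10 probe sets was called in the response of knockout liver to Wy14643 (limma), 2 having an unadjusted p under 0.05. Over all probe sets 0.0133% were called in this comparison, so that few calls of any kind were made in it. The fitted differences ran between -0.44 for Lamb3 and 0.61 for Fam47e on the log2 scale. These 2 genes were the ones with the lower p-values and are taken up below.

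On control food, 3 of the 10 probe sets were called between the genotypes, 1 higher and 2 lower in the knockout, where 0.353% of all probe sets were called (limma). The 3 were Cox6b2, Rad51b and Lamb3. Besides these, Bhlhb9 had an unadjusted p under 0.05 only. Groups did not overlap in the 3 called probe sets, while they did not overlap in 6.48% of all probe sets. Only the call of Cox6b2 held under each alternative processing and without each array in turn.

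**Figure D2:**
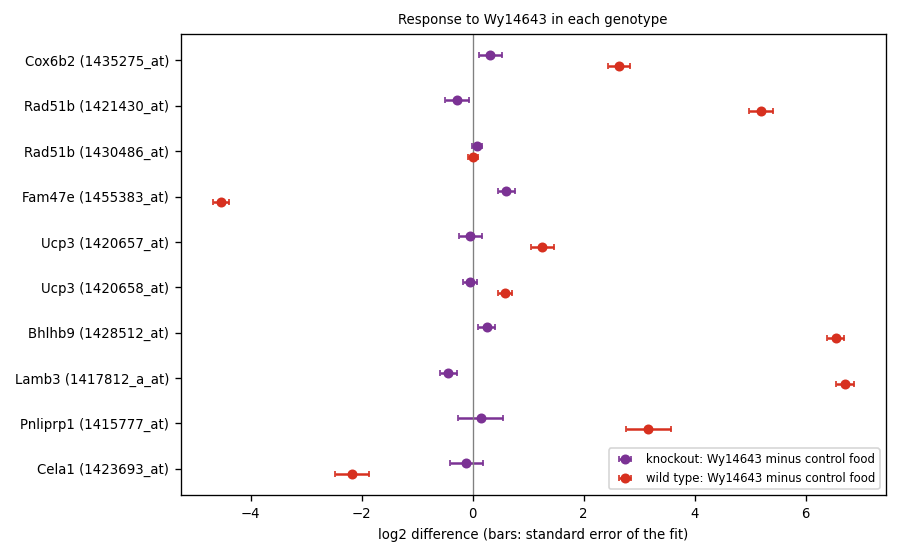
Log2 difference between Wy14643 and control food for each member probe set, in knockout liver (purple) and wild-type liver (red), with the standard error of the fit (4 arrays per group). The knockout values lie between -0.44 and 0.61, and the wild-type values between -4.54 for Fam47e and 6.71 for Lamb3.

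Cox6b2 encodes the testis isoform of a small subunit of cytochrome c oxidase, the last complex of the respiratory chain. Its log2 intensities were 2.34, 2.17, 1.88 and 3.05 in knockout livers on Wy14643, against 10.67, 10.58, 10.50 and 10.44 in wild-type livers on Wy14643. On control food they were 2.13, 1.62, 2.06 and 2.34 in knockout livers, against 7.81, 8.16, 8.03 and 7.65 in wild-type livers. The gene was thus well above background in wild-type liver without any agonist and near background in all knockout livers, with a wide gap between the genotypes on either food. The wild-type response was 2.63 ± 0.20 (SE, n = 4 per group). On control food the difference between knockout and wild type was -5.88 ± 0.20, with an adjusted p of 3.75e-11 (limma), which is at least 51.1-fold lower in the knockout. In knockout liver the change under Wy14643 was 0.32 ± 0.20, with an adjusted p of 0.675 (limma). The difference between the genotypes on Wy14643 was -8.19.

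The somatic counterpart Cox6b1 was far more even. Its brighter probe set had log2 intensities of 12.5 to 12.6 in knockout livers on Wy14643 and 12.9 in each wild-type liver on Wy14643. On control food it had 12.5 to 12.6 in knockout livers, against the same range in wild-type livers. Of 16 measured cytochrome c oxidase subunits, Cox6b2 not included, 1 was called higher and 0 lower in wild-type liver, with a median difference of 0.19. The one called was Cox7a1, the isoform of heart and skeletal muscle, with a difference of 1.82 ± 0.18, at mean log2 intensities of 4.46 on Wy14643 and 2.63 on control food. Without wild type on Wy14643 replicate 3 the count was 2, the other being Cox8a, which at 0.58 lay just under the fold threshold with all arrays. Subunits of this complex were called in neither the knockout response nor the comparison on control food. Germ cell markers gave no comparable signal. Their summed intensity over 15 genes was 57.2 to 73.4 in all 16 arrays, and only Sycp3, a protein of the meiotic chromosome axis, was called, at 1.24 ± 0.18 in the wild-type response. Of the other 14 none was called in that response.

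Ucp3, the uncoupling protein of skeletal muscle and brown fat in the inner mitochondrial membrane, was near background in all groups. Its probe set 1420657_at had log2 intensities of 1.56, 1.96, 1.45 and 1.83 in knockout livers on Wy14643, against 3.14, 3.45, 3.54 and 2.29 in wild-type livers on Wy14643. On control food it gave 1.97, 1.79, 1.68 and 1.53 in knockout livers, against 1.81, 1.80, 1.90 and 1.88 in wild-type livers. All 4 wild-type arrays on Wy14643 lay above the other 12, but replicate 4 by little. The wild-type response was 1.26 ± 0.20, or at least 1.82-fold higher on Wy14643. Without wild type on Wy14643 replicate 3 it was 1.11, at least 1.65-fold higher, and the difference of the responses lost its call. In knockout liver the change was -0.04 with an adjusted p of 0.975, and on control food the genotypes differed by -0.11 with an adjusted p of 0.946 (both limma).

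The second Ucp3 probe set, 1420658_at, moved the same way by less. It had 2.21, 1.97, 2.02 and 2.17 in knockout livers on Wy14643, against 2.71, 3.12, 2.54 and 2.64 in wild-type livers on Wy14643. On control food it had 2.22, 2.05, 2.18 and 2.10 in knockout livers, against 2.00, 2.02, 2.29 and 2.35 in wild-type livers. Again the wild-type livers on Wy14643 did not overlap with any other group. Over all probe sets, groups did not overlap in 22.6% in the wild-type response and in 21.5% between the genotypes on Wy14643. The wild-type response was 0.59 ± 0.12, or at least 1.43-fold higher on Wy14643, and fell under the fold threshold without wild type on Wy14643 replicate 2 (0.46), without wild type on control food replicate 1 (0.53) and without its replicate 2 (0.54). The difference of the responses was not called for this probe set. Adjusted p-values were 0.950 in the knockout response and 0.981 on control food (limma).

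Around Ucp3, genes that are known for a muscle or brown fat isoform or role were examined. Of 19 measured genes of energy metabolism of this kind, 7 were called higher and 1 lower in wild-type liver, and their median difference was 0.15. Fabp3, the fatty acid-binding protein of heart and muscle, was at least 306-fold higher, with mean log2 intensities of 10.5 on Wy14643 and 2.19 on control food. Slc27a1, a fatty acid transporter of muscle and fat, was at least 152-fold higher, with means of 9.49 on Wy14643 and 2.04 on control food. Pdk4, the kinase that shuts off pyruvate dehydrogenase, was higher by 7.34 ± 0.51 on the log2 scale, and Fabp4, the fatty acid-binding protein of adipocytes and macrophages, by 6.55 ± 0.28. The gene that was lower was Ppp1r3c, a glycogen-targeting subunit of protein phosphatase 1. In the same comparison all 10 measured textbook PPARα targets of mouse liver were higher, with a median of 4.33. Of 15 markers of skeletal muscle fibres, some of which are also in the list of energy metabolism, 0 were called in wild-type liver (limma). Their median difference was 0.16 with wild type on Wy14643 replicate 3 and -0.03 without it. Their summed intensity was 87.3 in that array and 48.8 to 58.1 in the other 15. Of the relatives of Ucp3, 4 were measured and 1 was called, Slc25a30, a mitochondrial carrier, higher by 2.51 ± 0.48. Ucp2 was not analysed here.

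Rad51b takes part in the repair of broken DNA by homologous recombination. Its probe set 1421430_at had log2 intensities of 2.15, 2.35, 1.88 and 2.33 in knockout livers on Wy14643, against 9.02, 8.90, 9.11 and 8.93 in wild-type livers on Wy14643. On control food it had 2.08, 2.93, 2.98 and 1.84 in knockout livers, against 3.61, 4.05, 3.97 and 3.57 in wild-type livers. Wild-type livers lay above knockout livers on both foods with no overlap, and within the wild type the agonist separated the groups by about 5 log2 units. In wild-type liver the change was 5.19 ± 0.21. On Wy14643 the knockout was lower by 6.81 on the log2 scale, or at least 108-fold lower. In knockout liver the change was -0.28, with an adjusted p of 0.745 (limma).

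On control food, Rad51b differed by -1.34 ± 0.21 between knockout and wild type, with an adjusted p of 0.00312 (limma). This call was lost without wild type on control food replicate 2 or 3 and without knockout on control food replicate 1, with adjusted p-values of 0.0163 to 0.0172, and under 3 other settings, so it stands close to the threshold. The other Rad51b probe set, 1430486_at, had log2 intensities of 1.14 to 1.49 in all 16 arrays and was called in no comparison. The 2 probe sets therefore disagreed, and which transcripts each of them matches was not examined.

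Rad51b was not alone among recombination genes. Of 12 other measured genes of homologous recombination, 5 were called higher and 0 lower in wild-type liver, with a median difference of 0.43. Rad51d, which works in a complex with Rad51b, was higher by 2.06 ± 0.25, Brca2, a tumour suppressor of DNA repair, by 1.52 ± 0.32, and Xrcc3, another recombination protein, by 1.35 ± 0.25. Rad51ap1, an accessory protein of recombination, was at least 1.52-fold higher, at means of 2.84 on Wy14643 and 1.86 on control food. None of the 12 was called in the knockout response or on control food (limma).

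Bhlhb9, also known as Gprasp3, belongs to a family of proteins on the X chromosome that bind G protein-coupled receptors and are known mainly from the brain. Its log2 intensities were 1.83, 2.36, 2.10 and 1.57 in knockout livers on Wy14643, against 8.50, 8.67, 8.49 and 8.91 in wild-type livers on Wy14643. On control food they were 1.73, 1.93, 1.53 and 1.66 in knockout livers, against 2.12, 2.22, 1.85 and 2.22 in wild-type livers. Only the wild-type livers on Wy14643 had a signal clearly above background. Wild-type liver changed by 6.54 ± 0.15, or at least 84.7-fold higher on Wy14643. The knockout response was 0.26 with an adjusted p of 0.662, and the genotypes on control food differed by -0.39 with an adjusted p of 0.466 (limma). Of its 9 measured relatives of the GASP and ARMCX group 0 were called in wild-type liver, the most positive being Armcx4 with 0.56 ± 0.32 and Armc10 with 0.55 ± 0.18. Gprasp2, its direct neighbour on the X chromosome, had group means of 1.56 to 1.79 and was at background in all 4 groups.

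Lamb3 encodes the β3 chain of laminin-332, the laminin that anchors the basal keratinocytes of the skin. Its log2 intensities were 2.76, 3.05, 3.02 and 2.49 in knockout livers on Wy14643, against 9.20, 9.08, 9.10 and 8.87 in wild-type livers on Wy14643. On control food they were 3.69, 3.43, 2.97 and 2.99 in knockout livers, against 2.42, 2.36, 2.26 and 2.37 in wild-type livers. The order of the genotypes was thus turned round on control food, where the knockout livers were slightly the higher ones without overlap. Both groups were near background there, with means of 3.27 in knockout and 2.35 in wild-type livers. In wild-type liver the response was 6.71 ± 0.15.

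The difference on control food was 0.92 ± 0.15 with an adjusted p of 0.00521 (limma). With log2 of intensity plus 16 it was 0.29, with an adjusted p of 0.0948 (limma). It lost its call without any 1 of the 4 wild-type arrays on control food and without knockout replicates 1 or 2, with adjusted p-values of 0.0154 to 0.0262, and under 3 of the other settings, the value staying between 0.78 and 1.02 when an array was left out. In knockout liver Wy14643 was accompanied by a difference of -0.44 ± 0.15, with an adjusted p of 0.360 (limma) and an unadjusted p of 0.0109. The difference of the responses, -7.15, was the largest in size among the members.

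Lama3, the α chain of laminin-332, did not share the rise in wild-type liver. On control food it was higher in the knockout livers, as Lamb3 was, but was not called. There its brighter probe set had 3.22, 3.48, 4.02 and 3.52 in knockout livers, against 2.50, 2.70, 1.90 and 2.88 in wild-type livers. In knockout livers on Wy14643 it had 3.17, 2.68, 2.93 and 2.84, also without a call in the knockout response. In wild-type liver its means were 1.34 on Wy14643 and 2.50 on control food, of which only the one on control food exceeds background, so it was at least 1.20-fold lower. Of 16 measured laminin chains, receptors and linker proteins, 2 were called higher and 2 lower, and 2 higher and 1 lower without wild type on Wy14643 replicate 3. Both lower calls, Lama3 and Lama1, compare with a mean at background, and their bounds are under 1.5-fold. Itga6, a chain of the integrin that binds laminin-332, was higher by 4.03 ± 0.15, with means of 6.74 on Wy14643 and 2.71 on control food, and Lamc1, the common γ chain, by 2.04 ± 0.21. Lama1, which lost its call without replicate 3, had means of 2.18 on Wy14643 and 2.80 on control food and was at least 1.47-fold lower. Keratinocyte markers gave 0 calls among 13 genes in wild-type liver (limma). Their summed intensity was 806 to 955 in wild-type livers on Wy14643 and 344 to 648 in the other 3 groups, and only Perp, a desmosomal protein, and Krt10 exceeded 4. Perp was higher by 0.55 ± 0.10 in the wild-type response, under the fold threshold, and the part of keratinocytes in the Lamb3 result was not tested. G0s2, an inhibitor of the adipose triglyceride lipase and the direct neighbour of Lamb3 on its other side from Camk1g, was higher by 2.18 in wild-type liver, while Camk1g was at background.

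**Figure D3:**
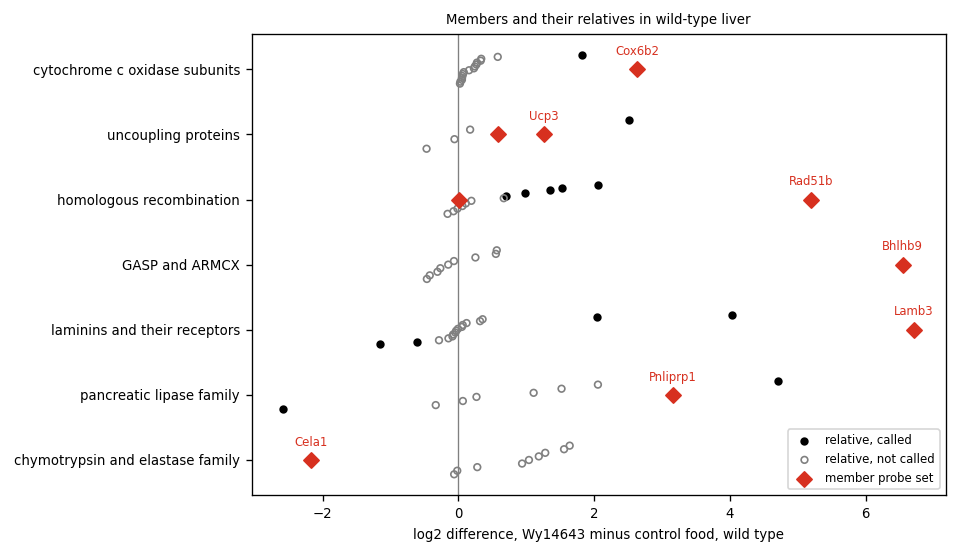
Log2 difference between Wy14643 and control food in wild-type liver for the member probe sets (red diamonds) and for the measured genes of their families (filled circles, called; open circles, not called). The members Cox6b2, Rad51b (1421430_at), Bhlhb9 and Lamb3 lie beyond every measured relative, while Ucp3 is exceeded by Slc25a30 and Pnliprp1 by Lpl.

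Pnliprp1, a pancreatic lipase-related protein made by acinar cells, was higher in wild-type liver on Wy14643 in every array. Its log2 intensities were 2.35, 1.78, 1.60 and 1.46 in knockout livers on Wy14643, against 3.94, 4.88, 6.72 and 4.25 in wild-type livers on Wy14643. On control food they were 1.67, 1.87, 1.49 and 1.60 in knockout livers, against 1.48, 1.97, 2.02 and 1.67 in wild-type livers. The highest value belonged to replicate 3, the array with the acinar transcripts, and the other 3 wild-type arrays on Wy14643 still exceeded all 12 remaining arrays. The wild-type response was 3.16 ± 0.41, at least 6.53-fold higher, and without replicate 3 it was 2.57, at least 4.34-fold higher. In those 3 arrays Pnliprp1 averaged 4.36 ± 0.48 (SD, n = 3), and the mean log2 intensity of the 12 acinar markers was 1.72, 1.70 and 1.63. How much of the Pnliprp1 signal came with acinar transcripts was not tested. The knockout response was 0.14 with an adjusted p of 0.954, and the genotypes on control food differed by -0.13 with an adjusted p of 0.970 (limma).

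The closest relative, Pnliprp2, did not follow. Its brighter probe set had 2.22, 1.59, 3.51 and 1.84 in wild-type livers on Wy14643, so that only replicate 3 was high. Of 8 measured genes of the pancreatic lipase family 1 was called higher and 1 lower in wild-type liver, and their median difference was 0.69 with replicate 3 and -0.12 without it. Lpl, lipoprotein lipase, was higher by 4.71 ± 0.24, and Pla1a, a phospholipase, was lower by 2.58 ± 0.17. Clps and Cel, the pancreatic colipase and carboxyl ester lipase, reached 7.90 and 7.56 in replicate 3 but did not exceed 1.75 and 2.34 in any other array. Pnlip was not analysed here.

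Cela1, a chymotrypsin-like elastase, went the other way. Its log2 intensities were 9.51, 9.53, 9.17 and 9.20 in knockout livers on Wy14643, against 6.82, 6.78, 8.53 and 6.49 in wild-type livers on Wy14643. On control food they were 9.55, 9.72, 9.33 and 9.27 in knockout livers, against 9.35, 9.42, 9.27 and 9.27 in wild-type livers. The signal was therefore strong in liver of 3 of the 4 groups, where acinar markers were at or near background, and its name as a pancreas gene does not describe these arrays. All 4 wild-type livers on Wy14643 were below the other 12, replicate 3 being the one nearest to them. The wild-type response was -2.17 ± 0.30, and -2.63 without replicate 3, where the 3 remaining arrays averaged 6.70 ± 0.18 (SD). The difference between knockout and wild type on Wy14643 was 2.20, and 2.66 without that array. The knockout response was -0.11 with an adjusted p of 0.950, and on control food the genotypes differed by 0.14 with an adjusted p of 0.954 (limma).

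In replicate 3 a high Cela1 value went with high values of other elastases. Of 9 measured genes of the chymotrypsin and elastase family 7 were higher in that array than in all others, and the median difference of the family in the wild-type response was 1.04 with the array and -0.04 without it, with 0 genes called either way (limma). Hsd3b5, a hydroxysteroid dehydrogenase of male mouse liver, and Slco1a1, a hepatic organic anion transporter, were the genes most similar to Cela1 over the 16 arrays, and a shared high value in replicate 3 is part of what that likeness measures. Hsd3b5 had 3.28, 3.26, 6.13 and 2.98 in the same 4 livers, with means of 11.4 to 11.8 in the other groups. Slco1a1 had 6.75, 6.73, 8.07 and 6.40 there. How much of the Cela1 signal of replicate 3 came with the acinar transcripts was not tested.

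**Figure D4:**
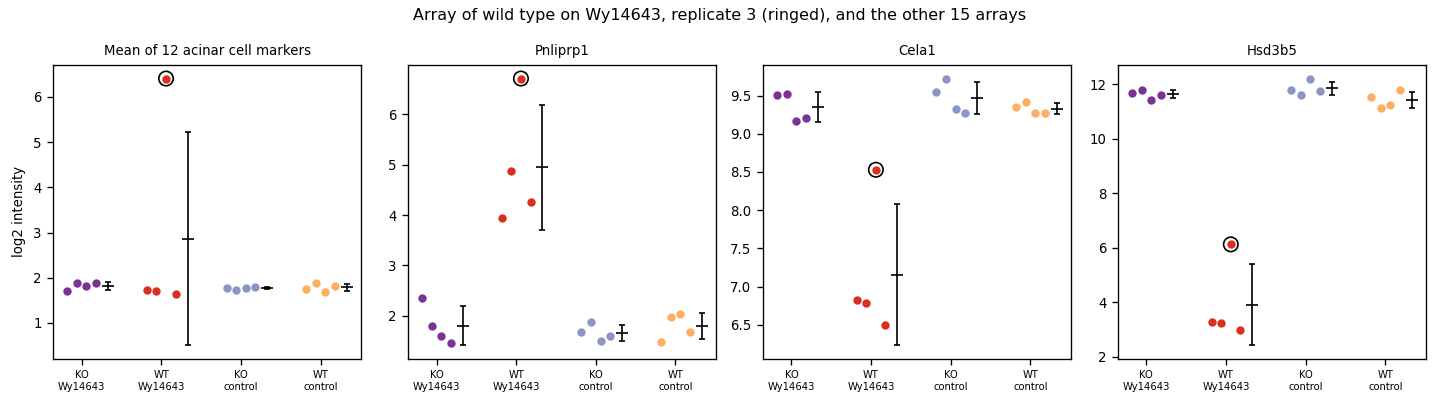
Mean log2 intensity of 12 pancreatic acinar markers, and log2 intensity of Pnliprp1, Cela1 and Hsd3b5, 1 point per array with group mean and SD, and wild type on Wy14643 replicate 3 ringed (each panel has its own scale). The ringed array has an acinar mean of 6.41, the highest Pnliprp1 value (6.72) and the highest Cela1 value (8.53) and Hsd3b5 value (6.13) of its group.

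Fam47e, a member of a gene family known mainly from testis, was the member that was lost in wild-type liver on Wy14643. Its log2 intensities were 6.06, 6.27, 6.24 and 6.17 in knockout livers on Wy14643, against 0.80, 0.64, 1.0 and 0.79 in wild-type livers on Wy14643. On control food they were 5.94, 5.62, 5.42 and 5.32 in knockout livers, against 5.05, 5.59, 5.62 and 5.12 in wild-type livers. The gene was well above background in 12 arrays and below the median of the array in the other 4. Under Wy14643 wild-type liver changed by -4.54 ± 0.15, at least 8.60-fold lower on Wy14643, and on Wy14643 the knockout was at least 15.4-fold higher than the wild type.

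In knockout liver, the 4 values on Wy14643 all lay above the 4 on control food. The difference was 0.61 ± 0.15, with an unadjusted p of 0.000773 and an adjusted p of 0.152 (limma), so it did not pass, in a comparison where groups did not overlap in 5.38% of all probe sets. An exact permutation test of 4 against 4 arrays cannot give a two-sided p below 0.0286. On control food the genotypes differed by 0.23 with an adjusted p of 0.754 (limma). Stbd1, a glycogen-binding protein encoded next to Fam47e, differed by 0.71 in the knockout response with an adjusted p of 0.0490 (limma), over the threshold of 0.01, and by 0.56 in the wild-type response. Fam47e and Stbd1 thus had differences of the same sign in knockout liver and of opposite sign in wild-type liver. In all, the 16 nearest measured protein-coding neighbours of the members were examined, of which 1, G0s2, was called higher and 1, Zfp36l1 next to Rad51b, lower (-0.80) in wild-type liver, and 6 were at background in every group.

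For the 6 members with a group mean of at least 6, the genes with the most similar pattern over the 16 arrays were looked up among 5698 genes, as a description, since most of the likeness is the shared group structure. The closest to Cox6b2 were Decr2, Acadvl and Etfb, enzymes of fatty acid oxidation in peroxisomes and mitochondria and the flavoprotein that takes up their electrons, with Pearson's r of 0.985, 0.979 and 0.978. They share with Cox6b2 a lower level in knockout than in wild-type liver on both foods, as with Decr2, whose means were 6.37 in knockout and 10.5 in wild-type livers on Wy14643 and 6.31 in knockout and 8.67 in wild-type livers on control food. The closest to Rad51b were 5031439G07Rik and Vnn1, a pantetheinase, with 0.993 each, and Ndufb3, a subunit of respiratory complex I, with 0.991.

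Bhlhb9 was closest to Slc27a1, Otop1, a proton channel, and Cyp4a31, a fatty acid hydroxylase, with r of 0.9975, 0.9968 and 0.9967. Lamb3 was closest to Nap1l1, a histone chaperone, Crat, carnitine acetyltransferase, and Cbfa2t3, a transcriptional corepressor, with r of 0.996, 0.995 and 0.992. Cela1 was closest to Hsd3b5, Slco1a1 and Tspan9, a tetraspanin, with r of 0.970, 0.965 and 0.964, and these also deviated from their group means along with Cela1, with r of 0.90, 0.85 and 0.82. That likeness rests in part on replicate 3. Fam47e was closest to Cyp1a2, a drug-metabolizing cytochrome P450, Prodh, proline dehydrogenase, and Fah, the last enzyme of tyrosine breakdown, with r of 0.994, 0.993 and 0.991. Cyp1a2 had means of 12.5 in knockout and 10.2 in wild-type livers on Wy14643, and 12.3 in either genotype on control food, so that its drop was smaller than that of Fam47e.

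Markers of other liver cells also differed in the wild-type arrays in which the members were switched. Of 10 Kupffer cell genes, which mark the resident macrophages, 9 were called lower and 0 higher in wild-type liver, with a median of -0.83 and summed intensities of 645 to 825 on Wy14643, against 1200 to 1435 on control food. Of 8 stellate cell genes 3 were lower, and of 8 genes of sinusoidal endothelium 1 was higher and 1 lower, the lower one, Clec4g, losing its call without wild type on Wy14643 replicate 3. Cholangiocyte markers gave 0 calls among 6 genes (limma), and hepatocyte markers 2 lower calls among 10. Their part in the member results was not tested.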

How the data were processed

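RNA from 16 livers was measured on Affymetrix arrays. The table that the authors deposited holds an intensity for each probe set in each array. The submitters' processing notes name GCRMA 2.20, which corrects the background, normalizes quantiles and summarizes probes. The linear scale is inferred from the values, which are all positive with medians of 4.43 to 4.72, and log2 was taken without an offset. Quantile normalization hides shifts common to most genes, and low values are shaped by the background correction. Labels and methods differ on mice per group and labelling protocol, and the 4 arrays per group of the labels were used. The 64 control probe sets were left out. The annotation named 1 gene for 34945 of 45037 probe sets, several for 932 and none for 9160.

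Every probe set was fitted with limma 3.58.1 (R 4.3.3), 1 mean per group, with two-sided tests and Benjamini-Hochberg adjustment over the whole table. Calls required an adjusted p under 0.01 together with a fold over 1.5. The members and the 18 gene lists were chosen with earlier results of these data known. List genes were represented by their brightest probe set, 200 of 224 entries being measured. Named genes were all members, Ppara, for each member with a group mean of at least 6 the 3 genes with the highest Pearson's r, up to 4 called genes per list (2 where none was called) by size in the wild-type response, and closest paralogs. Neighbouring genes, Ppp1r3c, Clps, Cel, Krt10 and Cox8a were named after their values were seen. The fitting script was tested on simulated data with known changes, placed only in wild type on Wy14643. In the wild-type response it called 62% of changes of 1.8-fold and 98% of 4-fold, and 30% and 94% in the difference of the responses. Since no change was placed in the other groups, recovery in the knockout response and on control food was not measured. Deviations of same-numbered arrays from their group means had r of -0.123 to 0.190 (6 of 24 pairs over 0.1). Differently numbered arrays were not compared, so these values cannot show whether numbers mark pairs. The labels name no pairs, and numbers were not used as such in the main fit. Alternatives were another offset, a filter on dim probe sets, median centring, quantile normalization, array weights, trend with robust moderation, only the arrays compared, other thresholds, and leaving out each array. Leaving out wild type on Wy14643 replicate 3 for lists was chosen after seeing the data.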

Additional observations from a re-analysis of the deposited data

Results flagged for a closer look

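In 5 of 76 groups of 4 arrays examined, 1 array lay further from the others than Dixon's critical value for 4 values allows, a test by which chance flags about 1 in 20 groups. Of these, 3 were wild type on Wy14643 replicate 3, with a gap of 0.981 of the group's range for the mean of the acinar markers, 0.850 for that of the skeletal muscle markers and 0.837 for Cela1. The other 2 were the mean of the germ cell markers in wild type on control food replicate 4 (0.853, at a log2 mean of 2.00) and that of the cholangiocyte markers in wild type on control food replicate 3 (0.905, at 1.91), both at background level.

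The response to Wy14643 in knockout minus that in wild type was past the threshold for all 8 genes, which follows from how they were chosen. It was -2.31 for Cox6b2, -1.30 for Ucp3 (1420657_at), -5.47 for Rad51b (1421430_at), -6.28 for Bhlhb9, -7.15 for Lamb3, -3.02 for Pnliprp1, 2.06 for Cela1 and 5.15 for Fam47e.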

How the results depend on the processing

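The number of member probe sets called in the knockout response was 0 under all alternatives. On control food it was 3, fell to 1 (Cox6b2) with log2 of intensity plus 16, with only the arrays compared and with a test against a 1.5-fold change, and ran from 1 to 3 when an array was left out (1 without wild type on control food replicate 2 or 3 or without knockout on control food replicate 1). A filter on mean log2 values above 4, which leaves only 5 member probe sets, gave 5 in the wild-type response (9), 5 for the genotypes on Wy14643 (9) and 5 for the difference of the responses (8), and the test against 1.5-fold also gave 5 for the last. Without an array these 3 counts ran from 8 to 9, 8 to 9 and 7 to 8. The call of the difference of the responses was lost for Ucp3 1420657_at in 11 of 25 alternatives. The list genes called in the wild-type response, genes in 2 lists counted for each, were 48, and 26 against 1.5-fold. By Spearman's rho 3 of the 18 most similar genes were kept. With replicate number as a block, the counts were 0, 3, 9, 9 and 8, and 48 for the lists, so this paired fit changed no count.

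Signs changed only for values near 0 that were not called. Without an array, the knockout response ran from -0.129 to 0.0403 for Ucp3 1420657_at and from -0.0413 to 0.257 for Pnliprp1, the difference on control food from -0.0831 to 0.0356 for Ucp3 1420658_at, and for Rad51b 1430486_at the wild-type response from -0.0505 to 0.0467 and the difference on Wy14643 from -0.0723 to 0.0312. With array weights the wild-type response of Rad51b 1430486_at was -0.0038. The causes were not tested. Values near the array median, such as those of Ucp3, depend on the background correction of the authors' method, and with 4 mice a group small differences cannot be told from none.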
